A study of Rattus norvegicus with 6 samples.

Results

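The genes described here are 10 chemokines, namely the CXC chemokines Cxcl1, Cxcl2, Cxcl3, Cxcl6, Cxcl9, Cxcl10, Cxcl12, Cxcl13 and Cxcl16 and the CX3C chemokine Cx3cl1. They were taken by gene name from a table of 32623 rat genes, and all 10 were among the 13964 genes with enough expression to be tested. The table came from RNA sequencing of myocardial tissue from wild-type rats, described as male, in 2 groups. The 3 sham samples came from rats for which no coronary ligation is described. The paper states a sham operation for the sham group of its reperfusion experiment, without saying whether thoracotomy or ventilation was part of it. The 3 ischemia samples came from rats whose left anterior descending (LAD) coronary artery had been tied after thoracotomy under ventilation. For both groups 30 min is given. Strain and age are not given in the sources used here, nor is the part of the ventricle that was sampled. The replicates are separately labeled samples. The labels do not state that each came from its own rat, so p-values measure the spread between these samples.

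Chemokines are small secreted proteins that guide white blood cells along a gradient by binding G protein-coupled receptors. CXC ligands that carry a glutamate-leucine-arginine (ELR) motif before the first cysteine, such as Cxcl1, Cxcl2, Cxcl3 and Cxcl6, act mainly on the receptors Cxcr1 and Cxcr2 and attract neutrophils. Cxcl9, Cxcl10 and Cxcl11 are induced by interferon and attract T cells through Cxcr3, whereas Cxcl12 and Cxcl13 are produced at rest in many tissues and act through Cxcr4 and Cxcr5. Cxcl16 and Cx3cl1 are made as membrane proteins on a mucin-like stalk, from which proteases release a soluble form, and their receptors are Cxcr6 and Cx3cr1. In the injured heart these ligands are known for the recruitment of neutrophils, monocytes and lymphocytes.

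The start regions of these genes were examined because the ELR ligands are known targets of NF-kB, a transcription factor that inflammatory signals activate. RefSeq promoter entries (GRCr8 build, 250 bases before to 50 bases after each gene start) matched 9 of the 10 genes, and Cxcl3 had none. The NF-kB consensus motif, searched on both strands, was found in 7.51% of the 33469 promoters in the same collection. It occurred in Cxcl1, Cxcl2, Cxcl6 and Cxcl10 and not in Cxcl9, Cxcl12, Cxcl13, Cxcl16 or Cx3cl1. The first base of the match lay 84 bases upstream of the start in Cxcl1, 74 bases in Cxcl2 and 88 bases in Cxcl6. Cxcl10 held matches beginning 187 and 128 bases upstream. Cxcl11, an interferon-induced ligand beside Cxcl10 that is not among the 10 genes, held 1 match beginning 74 bases upstream. Several of these matches overlap a match on the opposite strand or one shifted by a base. The windows below run 5′ to 3′ on the strand of the gene, from 110 to 11 bases upstream of the start except in Cxcl10, where the window runs from 200 to 101 bases upstream. Capitals mark the bases of the NF-kB matches, and the windows of Cxcl12 and Cx3cl1 are shown as ligands without one.
Cxcl1, chr14:17479332-17479431, minus strand: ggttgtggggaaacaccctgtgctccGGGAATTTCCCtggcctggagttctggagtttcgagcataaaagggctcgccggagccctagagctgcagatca
Cxcl2, chr14:17467266-17467365, minus strand: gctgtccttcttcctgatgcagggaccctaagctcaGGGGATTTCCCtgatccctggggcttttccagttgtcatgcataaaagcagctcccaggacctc
Cxcl6, chr14:17596428-17596527, minus strand: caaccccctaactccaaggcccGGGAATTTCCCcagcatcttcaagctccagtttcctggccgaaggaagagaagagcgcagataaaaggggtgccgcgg
Cxcl10, chr14:15988866-15988965, plus strand: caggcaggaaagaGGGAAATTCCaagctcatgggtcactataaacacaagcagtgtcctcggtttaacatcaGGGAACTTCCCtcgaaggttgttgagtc
Cxcl11, chr14:15973618-15973717, plus strand: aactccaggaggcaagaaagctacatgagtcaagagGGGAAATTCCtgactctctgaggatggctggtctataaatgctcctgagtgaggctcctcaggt
Cxcl12, chr4:152060671-152060770, plus strand: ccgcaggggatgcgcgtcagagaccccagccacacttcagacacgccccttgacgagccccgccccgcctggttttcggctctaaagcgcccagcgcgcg
Cx3cl1, chr19:10242831-10242930, minus strand: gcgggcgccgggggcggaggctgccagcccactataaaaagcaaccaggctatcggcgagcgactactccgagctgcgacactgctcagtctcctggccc
Cxcl1 and Cxcl6 held the same matched letters. The other motifs searched were more scattered. The interferon-stimulated response element core occurred in 3.92% of all promoters and, among the 10 genes, only in Cxcl10. The TATA box letters TATAAA occurred in 14.2% of promoters, and among the 10 genes in Cxcl10, Cxcl13 and Cx3cl1. The hypoxia response core ACGTG occurred in 19.3% of promoters, and among the 10 genes in Cxcl2 and Cxcl9. A match describes these letters only and is not evidence of binding.

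Between 68529126 and 79591989 counts were obtained per sample, so that 3 counts corresponded to 0.0377 to 0.0438 CPM (counts relative to the library total). Some samples stood apart. Sham replicate 1, although the rats are described as male, had 0 counts of the Y-linked gene Kdm5d where the other samples had 773 to 1156. Over the 48 listed Y-linked genes it had 161 counts, where the other samples had 3218 to 8970. Summed FPKM (the fragment count of a gene scaled to its length and to sequencing depth) of 4 atrial cardiomyocyte markers was 48341 and 39203 in sham replicates 1 and 3 but 214.9 in sham replicate 2, against 1279 to 9610 in ischemia. The lung epithelium markers summed to 410.6 FPKM in ischemia replicate 1, almost all of it Scgb1a1, and to at most 15.1 elsewhere. All samples held ventricular cardiomyocyte markers, at 25145 to 42131 FPKM in sham and 11913 to 23056 in ischemia. None of the tested ventricular (8), atrial (4), smooth muscle (6) or lung (3) markers was called by edgeR. At an unadjusted p under 0.05 and by DESeq2, 3 ventricular markers and 1 smooth muscle marker were lower. At an unadjusted p under 0.05, 1 lung marker was higher. DESeq2 gave no adjusted p for the 3 lung markers or for 2 of the ventricular ones. The summed neutrophil and the summed monocyte and macrophage markers were highest in ischemia replicate 2, although single markers such as Lcn2 were not. In bulk tissue, fewer cells of a type and less RNA per cell cannot be told apart.

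The 4 ELR ligands were at low levels in sham myocardium, with at most 19 counts per sample for Cxcl2, Cxcl3 and Cxcl6, and were higher in every ischemia sample. By edgeR's quasi-likelihood test with Benjamini-Hochberg adjustment over all tested genes, 4 of the 10 chemokines were higher in ischemia, all of them ELR ligands, where 5.18% of tested genes were called higher. No chemokine was called lower by that test, where 1.53% of tested genes were, although 1 (Cx3cl1) had an unadjusted p under 0.05 and DESeq2 called that gene lower. Over both directions, 4528 of the 13964 tested genes had an unadjusted p under 0.05. The 4 ELR ligands also had a log2 fold change above 2 with unadjusted p under 0.01, the study's own selection rule, which 3.31% of tested genes met in this direction. The groups did not overlap, with ischemia above sham, for 4 of the 10 chemokines against 23.6% of tested genes, and with ischemia below sham for 1 of the 10 against 15.0%. Cxcl2, Cxcl3 and Cxcl6 reached the expression filter only through their ischemia values, so that a gene of this kind had to differ in order to be tested.

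**Figure D1:**
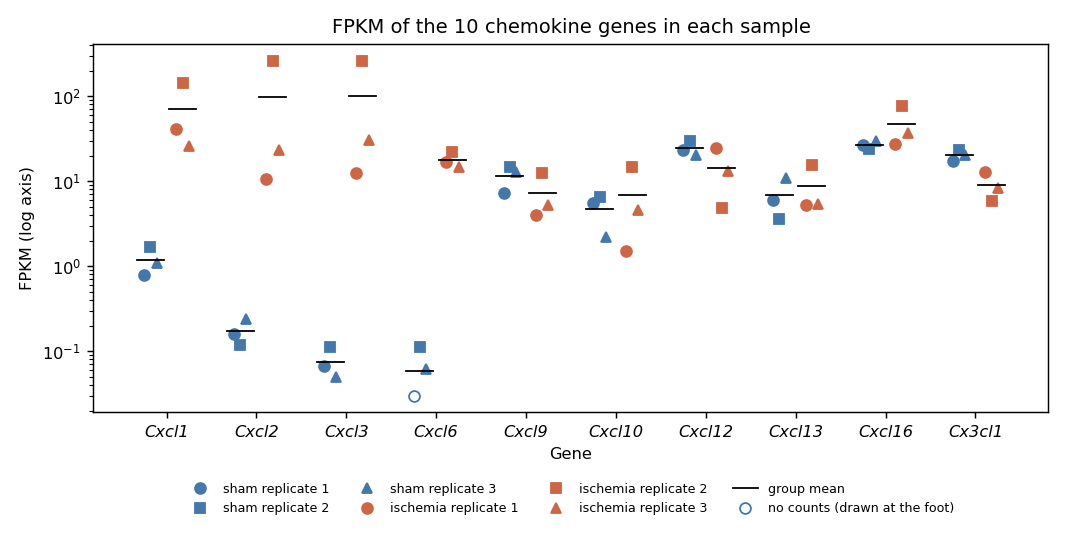
FPKM on a log axis of the 10 chemokine genes in each of the 6 samples, with sham in blue, ischemia in orange, marker shapes for replicates and bars for group means. The ischemia points of Cxcl1, Cxcl2, Cxcl3 and Cxcl6 lie above all of their sham points, those of Cx3cl1 lie below, and the other 5 genes overlap; the open circle marks sham replicate 1 of Cxcl6, which had no counts.

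Cxcl1 (ENSRNOG00000002802), a neutrophil attractant made by endothelium, macrophages and stromal cells, was the most abundant ELR ligand of sham tissue. In the order of replicates 1, 2 and 3, which is kept below, it measured 0.785, 1.67 and 1.10 FPKM in sham and 40.9, 144.0 and 25.9 FPKM in ischemia. The lowest ischemia sample was thus well above the highest sham sample, and ischemia replicate 2 was 3.52 times the next ischemia sample. The mean was 1.19 ± 0.449 FPKM in sham and 70.3 ± 64.3 FPKM in ischemia (SD, n = 3 each). The log2 fold change was 5.68 ± 0.80 (SE, edgeR adjusted p = 0.0291) and 4.71 without ischemia replicate 2.

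Cxcl2 (ENSRNOG00000002792), released mainly by macrophages and neutrophils themselves, was nearly absent from sham tissue. Sham replicates held 0.158, 0.119 and 0.238 FPKM, from 13, 11 and 19 counts, and ischemia replicates 10.7, 261.6 and 23.5 FPKM, from 946, 21031 and 1789 counts. Every ischemia sample was above sham, but ischemia replicate 2 was 11.1 times the next, so that the ischemia mean of 98.6 ± 141.3 FPKM (SD, n = 3) rests largely on 1 sample. The log2 fold change was 8.96 ± 1.53 (SE, edgeR adjusted p = 0.0361) and 6.58 without that sample.

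Cxcl3 (ENSRNOG00000028043), a close relative of Cxcl2, showed the same order of the ischemia samples. Sham replicates held 0.0665, 0.111 and 0.0499 FPKM, from 8, 14 and 6 counts, and ischemia replicates 12.4, 258.9 and 31.0 FPKM. The groups were far apart, and ischemia replicate 2 again stood 8.36 times above the next sample. The mean in ischemia was 100.7 ± 137.2 FPKM (SD, n = 3), and the log2 fold change was 10.04 ± 1.53 (SE, edgeR adjusted p = 0.0303), with 7.96 when ischemia replicate 2 was left out. Of the 10 genes it had the largest log2 fold change, ranking 21 of all 13964 tested genes.

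Cxcl6 (ENSRNOG00000002843), a ligand made by epithelial and stromal cells, differed from the other ELR ligands in its evenness among ischemia samples. It measured 0, 0.112 and 0.0617 FPKM in sham, from 0, 15 and 8 counts, and 16.9, 21.8 and 14.8 FPKM in ischemia. The ischemia samples lay close together, with replicate 2 at 1.29 times the next, and all were far above sham. The mean in ischemia was 17.8 ± 3.59 FPKM (SD, n = 3) and the log2 fold change 8.01 ± 0.99 (SE, edgeR adjusted p = 0.0272). It ranked 34 among tested genes, beside 28 for Cxcl2 and 89 for Cxcl1.

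The calls of these 4 ligands depended on which samples entered the fit. All 4 calls were lost without sham replicate 1, 2 or 3 and without ischemia replicate 3, settings in which no gene at all passed the adjusted threshold, and they were kept without ischemia replicate 1 or 2. Without sham replicate 1, the sample low in Y-linked counts, the log2 fold changes were 5.42 for Cxcl1, 8.86 for Cxcl2, 9.89 for Cxcl3 and 7.41 for Cxcl6, with adjusted p between 0.125 and 0.160. Without sham replicate 2, the sample low in atrial markers, Cxcl6 reached 9.02. In every fit with 1 sample left out, the unadjusted p stayed under 0.05 for all 4, as it did for 3020 to 5509 of the 13964 tested genes. In an exact two-sided permutation test of the FPKM values each gave p = 0.1, the smallest that 3 samples against 3 allow.

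**Figure D2:**
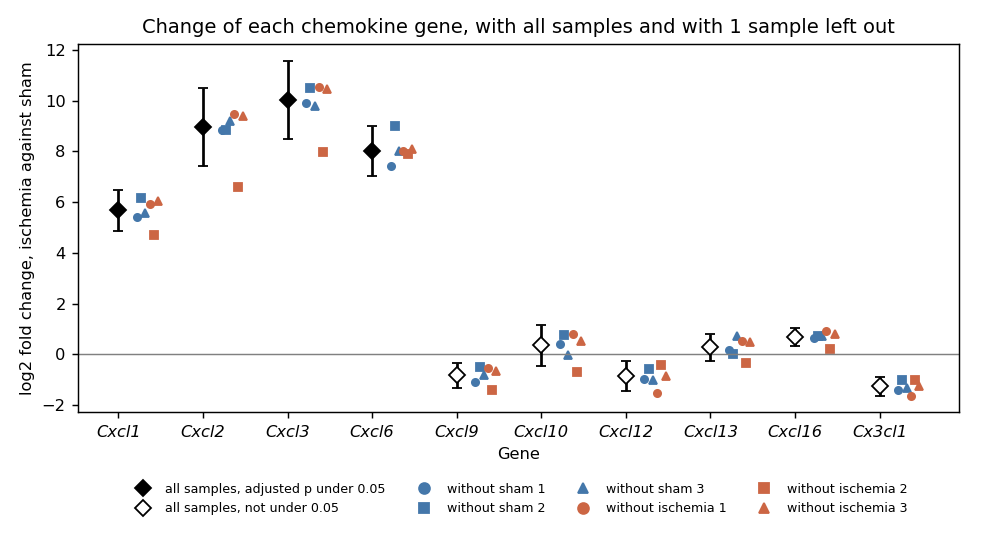
Log2 fold change of ischemia against sham for the 10 chemokine genes, with diamonds for the fit of all samples (bars, SE; filled where the edgeR adjusted p was under 0.05) and small symbols for the fits that leave out 1 sample. Leaving out ischemia replicate 2 lowers Cxcl2 from 8.96 to 6.58 and Cxcl3 from 10.04 to 7.96, while Cxcl10 and Cxcl13 lie on both sides of 0.

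Neutrophil markers as a sum were higher in ischemia, as the ELR ligands were. The 11 listed markers summed to 14.2 to 31.0 FPKM in sham and to 802.8 to 3697 FPKM in ischemia, and 6 of the 9 tested ones were called higher and none lower. S100a8, S100a9, Csf3r, Mmp8, Lcn2 and Itgam were the 6. At an unadjusted p under 0.05, 1 of the 9 was lower, and DESeq2 gave no adjusted p for 2 of them. Csf3r, Mmp8, Camp and Elane were tested only because of their ischemia values, so that the count of called markers is a description. Other granule genes of the list, Ltf, Mpo, Elane and Camp, went different ways and were not called. Ltf was at 0 in every sample. Mpo measured 0, 0.497 and 3.78 FPKM in sham and at most 0.0170 FPKM in ischemia. Elane was at 0 in all sham samples and measured 0.219, 7.30 and 0.301 FPKM in ischemia, and Camp measured 0, 0 and 0.174 FPKM in sham and 0.572, 5.84 and 0.688 FPKM in ischemia. Ischemia replicate 2, where Cxcl1, Cxcl2 and Cxcl3 peaked, also had the highest summed neutrophil markers. The lowest ischemia sum was in replicate 3, as for Cxcl1 and Cxcl6, whereas Cxcl2 and Cxcl3 were lowest in replicate 1. Monocyte and macrophage markers summed to 283.2 to 453.1 FPKM in sham and 982.0 to 5097 FPKM in ischemia, of which Lyz2 made up most in ischemia, and 3 of the 9 tested ones were called higher. None was called lower, although 3 (Adgre1, C1qa and C1qc) were lower at an unadjusted p under 0.05 and DESeq2 called 2 lower. The part of these cells in the chemokine values was not tested.

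The mix of ligands also differed between the groups. The 4 ELR ligands together made up 1.16%, 1.95% and 1.48% of the summed FPKM of the 10 chemokines in the sham samples, and 51.6%, 84.0% and 56.4% in the ischemia samples. The most abundant chemokine was Cxcl16, Cxcl12 and Cxcl16 in the sham samples and Cxcl1, Cxcl2 and Cxcl16 in the ischemia samples. Among the ELR ligands Cxcl1 held 75.9% to 83.0% in sham and only 50.6%, 21.0% and 27.2% in ischemia. The log2 ratio of Cxcl3 to Cxcl1 was accordingly -3.98 on average in sham and -0.21 in ischemia (difference 3.77, exact permutation p = 0.1), and that of Cxcl2 to Cxcl1 was -2.78 and -0.40 (difference 2.37, exact permutation p = 0.1). These were 2 of 8 gene pairs, chosen after the values were seen, and no pair can reach a smaller p in this design. The 3 ligands are similar in sequence, and how reads matching more than 1 of them were counted is not given in the sources used here, so their separate levels are less certain than their sum.

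**Figure D3:**
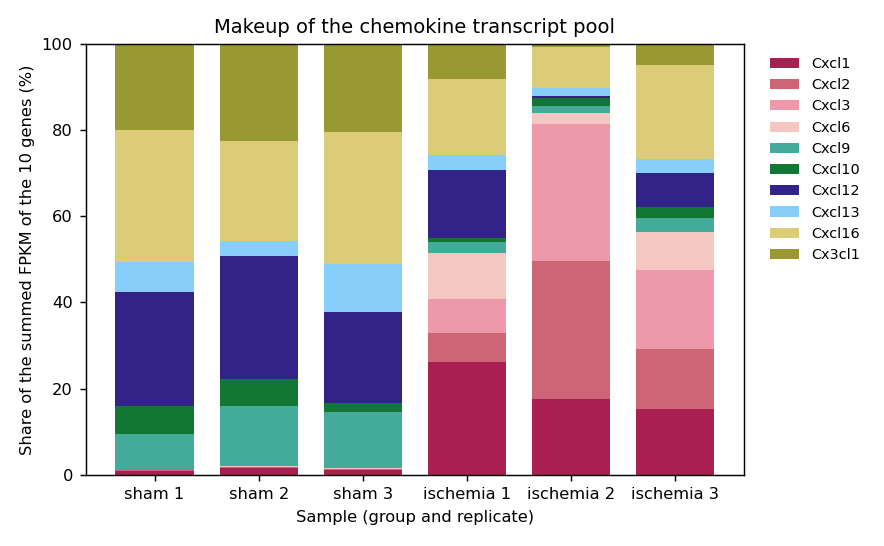
Share (%) of each of the 10 chemokine genes in their summed FPKM in each sample, as stacked bars. The red and pink segments of the 4 ELR ligands cover 1.16% to 1.95% of the sham bars and 51.6% to 84.0% of the ischemia bars.

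In sham tissue the levels fell into steps. Cxcl16 (26.9 ± 3.10 FPKM), Cxcl12 (24.3 ± 4.51) and Cx3cl1 (20.3 ± 2.96) led with overlapping samples (SD, n = 3 each). Cxcl9, Cxcl13 and Cxcl10 followed, lower than Cx3cl1 in every sample and each overlapping the next. Cxcl1 lay below these and Cxcl2 below Cxcl1, each without overlap, and Cxcl3 and Cxcl6 overlapped at the bottom. Cxcl2 lay above Cxcl3 in FPKM without overlap, but their few counts did overlap (13, 11 and 19 against 8, 14 and 6). The order of Cxcl2 and Cxcl3 in sham is therefore uncertain. In ischemia the means ran from Cxcl3, Cxcl2, Cxcl1 and Cxcl16 down to Cxcl6, Cxcl12, Cx3cl1, Cxcl13, Cxcl9 and Cxcl10, and the only neighbors in that order whose samples did not overlap were Cxcl16 and Cxcl6.

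The interferon-induced ligands did not pass the test. Cxcl9 (ENSRNOG00000022242) measured 7.31, 14.5 and 12.8 FPKM in sham and 3.97, 12.7 and 5.19 FPKM in ischemia. Ischemia replicates 1 and 3 were below all sham samples and replicate 2 lay among them, for a log2 fold change of -0.83 ± 0.50 (SE, edgeR adjusted p = 0.288). Cxcl10 (ENSRNOG00000022256) measured 5.61, 6.46 and 2.22 FPKM in sham and 1.50, 14.6 and 4.65 FPKM in ischemia, so that ischemia held both the lowest and the highest sample. Its log2 fold change of 0.35 ± 0.82 (SE, edgeR adjusted p = 0.787) turned to -0.70 without ischemia replicate 2 and to -0.02 without sham replicate 3.

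Cxcl11, the other ligand of Cxcr3, had another pattern than Cxcl9 and Cxcl10. It measured 1.11, 8.24 and 1.12 FPKM in sham and 24.9, 16.8 and 27.0 FPKM in ischemia. All ischemia samples were above sham, with sham replicate 2 set apart from the other sham samples, but its log2 fold change of 2.49 ± 0.95 (SE) did not pass (edgeR adjusted p = 0.133). Without sham replicate 2 it was 4.38 (adjusted p = 0.0819). Cxcl11 did pass with DESeq2 (adjusted p = 0.0237) and with limma on log2(FPKM + 0.1), log2(FPKM + 1) and log2(FPKM + 0.01) (adjusted p = 0.0457, 0.0439 and 0.0482). The log2 ratio of Cxcl11 to Cxcl10 averaged -0.99 in sham and 2.26 in ischemia (exact permutation p = 0.2), while that of Cxcl10 to Cxcl9 gave an exact permutation p of 0.4.

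Of the interferon signaling genes, 9 of 11 were tested, and 1 was called higher (Ifngr2, a chain of the interferon gamma receptor, log2 fold change 1.19 ± 0.21, SE, edgeR adjusted p = 0.0361). At an unadjusted p under 0.05, 3 were higher, and DESeq2 called 2 higher. Irf7 was uneven, at 72.8 to 222.7 FPKM in sham and at 15.1, 119.9 and 11.9 FPKM in ischemia (log2 fold change -1.60 ± 0.93, SE, edgeR adjusted p = 0.267), and -3.35 without ischemia replicate 2 (adjusted p = 0.0417). Ifng and Ifnb1, which encode the interferons themselves, had no counts in sham and were not tested.

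Cxcl12 and Cxcl13, ligands produced at rest, overlapped between the groups. Cxcl12 (ENSRNOG00000013589), a stromal ligand that retains cells bearing Cxcr4, measured 23.1, 29.3 and 20.6 FPKM in sham and 24.7, 4.78 and 13.3 FPKM in ischemia. Ischemia replicate 1 lay within the sham range and the other ischemia samples lay below it, with replicate 2 lowest, opposite to its place among the ELR ligands. The log2 fold change was -0.86 ± 0.60 (SE, edgeR adjusted p = 0.343) and ran from -1.52 without ischemia replicate 1, the sample high in the lung epithelium marker Scgb1a1, to -0.44 over the fits without 1 sample. Fibroblast markers, some of which belong to the cells that make Cxcl12, summed to 698.3 to 2247 FPKM in sham and 271.4 to 706.2 in ischemia. None of the 6 tested was called in either direction, although 3 were lower at an unadjusted p under 0.05 and 3 by DESeq2. Their part in the Cxcl12 values was not tested.

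Cxcl13 (ENSRNOG00000024899), a B cell attractant, measured 6.10, 3.57 and 11.1 FPKM in sham and 5.29, 15.7 and 5.45 FPKM in ischemia. Only ischemia replicate 2 was above the sham range. Its log2 fold change was 0.28 ± 0.52 (SE, edgeR adjusted p = 0.732), and -0.35 without ischemia replicate 2. The lymphocyte markers, among them B cell genes, summed to 19.7 to 29.0 FPKM in sham and 27.6 to 39.6 in ischemia, and of the 6 tested 1 was called higher and 1 lower. Their part in the Cxcl13 values was not tested.

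The membrane-anchored ligands had estimates of opposite sign, and neither was called by edgeR with all samples. Cx3cl1 (ENSRNOG00000016326), known as fractalkine, is carried by endothelial cells and binds monocytes and lymphocytes that bear Cx3cr1. It measured 17.4, 23.3 and 20.2 FPKM in sham and 12.9, 5.89 and 8.32 FPKM in ischemia. Every ischemia sample was below every sham sample, and replicate 2 was lowest. The mean was 20.3 ± 2.96 FPKM in sham and 9.03 ± 3.56 in ischemia (SD, n = 3 each), and the log2 fold change was -1.27 ± 0.36 (SE). This missed the threshold in edgeR (unadjusted p = 0.0118, adjusted p = 0.0791), passed it in DESeq2 (adjusted p = 0.0101) and passed it in edgeR without ischemia replicate 1 (log2 fold change -1.63, adjusted p = 0.0337). The exact permutation test gave p = 0.1. Endothelial markers stayed within 201.0 to 210.4 FPKM in sham and 183.0 to 211.4 in ischemia, and none of the 6 tested was called, although 1 was lower at an unadjusted p under 0.05 and by DESeq2.

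Cxcl16 (ENSRNOG00000026647), a ligand of Cxcr6 that also acts as a scavenger receptor on macrophages, measured 26.6, 23.9 and 30.1 FPKM in sham and 27.6, 76.7 and 36.6 FPKM in ischemia. Ischemia replicate 1 lay within the sham range and replicates 2 and 3 above it. The log2 fold change was 0.69 ± 0.35 (SE, edgeR adjusted p = 0.213) and 0.22 without ischemia replicate 2. The log2 ratio of Cxcl16 to Cx3cl1 averaged 0.41 in sham and 2.31 in ischemia, where all samples were above sham (difference 1.91, exact permutation p = 0.1).

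The receptors were mostly at low levels, and 1 of the 6 tested was called higher and none lower. At an unadjusted p under 0.05, which 4528 of the 13964 tested genes had in either direction, 4 were higher. The called receptor was Cxcr2, the receptor of the ELR ligands and a gene of mature neutrophils. It measured 0.352, 0.232 and 0.327 FPKM in sham and 4.27, 42.9 and 4.91 FPKM in ischemia. All ischemia samples were above sham, and replicate 2 was 8.74 times the next, as in Cxcl2 and Cxcl3. The log2 fold change was 5.66 ± 1.06 (SE, edgeR adjusted p = 0.0394) and 3.87 without ischemia replicate 2. Like Cxcl2, it reached the expression filter only through ischemia. The call was lost without sham replicate 1, 2 or 3, without ischemia replicate 3 and with limma on log2(FPKM + 1), and DESeq2 gave no adjusted p for it. Cxcr1, the other receptor of this group, was listed at 0 in all 6 samples.

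Cxcr6, the receptor of Cxcl16, measured 0.354 to 0.385 FPKM in sham and 0.775 to 1.58 in ischemia (log2 fold change 1.58 ± 0.41, SE, edgeR adjusted p = 0.0655). Cxcr3, the receptor of the interferon-induced ligands, measured 0.811 to 1.50 FPKM in sham and 2.58 to 2.70 in ischemia (1.09 ± 0.34, adjusted p = 0.0927). The groups did not overlap for either receptor, and neither passed in edgeR, although DESeq2 called both higher (adjusted p = 0.00746 for Cxcr6 and 0.0162 for Cxcr3). Like Cxcr2, Cxcr6 reached the expression filter only through ischemia. Cx3cr1, the receptor of Cx3cl1, overlapped, at 0.357 to 1.16 FPKM in sham and 0.908 to 5.09 in ischemia (log2 fold change 1.77 ± 0.69, SE, edgeR adjusted p = 0.135, and 1.03 without ischemia replicate 2). Cxcr4 and Ackr3, which bind Cxcl12, did not pass either, with log2 fold changes of 0.52 ± 0.70 (adjusted p = 0.627) and -0.50 ± 0.34 (adjusted p = 0.334). Cxcr4 turned to -0.66 without ischemia replicate 2, which held 50.4 FPKM where the other ischemia samples held 8.49 and 10.5. Cxcr5, the receptor of Cxcl13, was below the expression filter, and Ackr1 was matched to no gene name.

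Among the 5 listed genes for proteases of these ligands and for inactive rhomboids, 2 were called. Dpp4, the peptidase that trims and inactivates Cxcl12 and Cxcl10, measured 3.14, 2.63 and 3.04 FPKM in sham and 0.649, 0.621 and 0.745 in ischemia. The samples of each group lay close together and the groups were far apart, with a log2 fold change of -2.20 ± 0.23 (SE, edgeR adjusted p = 0.0246). Rhbdf2, an inactive rhomboid that brings the sheddase Adam17 to the cell surface, measured 2.28 to 3.51 FPKM in sham and 6.87 to 18.5 in ischemia (log2 fold change 1.92 ± 0.41, SE, edgeR adjusted p = 0.0478). Adam17 itself, which sheds Cx3cl1 and Cxcl16, was above sham in every ischemia sample but did not pass (0.83 ± 0.31, adjusted p = 0.130), and neither Adam10, the other sheddase (-0.05 ± 0.32, adjusted p = 0.933), nor Rhbdf1 (0.15 ± 0.21, adjusted p = 0.645) passed.

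Among the genes upstream of the ELR ligands, 16 of 18 inducing cytokines, their receptors and NF-kB genes were tested, and 6 were called higher and none lower, with 9 higher by DESeq2. Il1b, a strong inducer of Cxcl1 and Cxcl2, measured 1.01, 1.84 and 1.64 FPKM in sham and 12.3, 88.0 and 17.4 in ischemia. Its samples followed the order of Cxcl2 and Cxcl3 in ischemia, and its log2 fold change was 4.52 ± 0.85 (SE, edgeR adjusted p = 0.0397), with 3.23 when ischemia replicate 2 was left out. The others were the interleukin 17 receptor chain Il17ra (2.72 ± 0.55, and 1.96 without ischemia replicate 2), the NF-kB subunits Rel (2.68 ± 0.47) and Relb (1.16 ± 0.19), and the transcription factors Cebpb (2.73 ± 0.42) and Cebpd (2.75 ± 0.28), given as log2 fold change and SE. The other NF-kB subunits Rela (0.22 ± 0.16), Nfkb1 (0.36 ± 0.27) and Nfkb2 (0.78 ± 0.20) did not pass in edgeR, nor did Tnf (1.02 ± 0.61). DESeq2 called Nfkb2, Nfkbia and Nfkbiz higher as well. Rel reached the expression filter only through ischemia. Of the ligands that signal through Il17ra, Il17a was listed at 0 in all 6 samples, and Il17f had no counts in sham and 14, 0 and 23 counts in ischemia, too few to be tested.

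The ELR ligand transcripts are short-lived because of AU-rich elements, and factors that control such transcripts were examined next. All 6 listed factors were tested, and 3 were called higher and none lower. Zfp36, which promotes decay, measured 44.4, 32.2 and 23.0 FPKM in sham and 105.2, 157.5 and 84.0 in ischemia. The groups did not overlap, and the log2 fold change was 1.68 ± 0.33 (SE, edgeR adjusted p = 0.0422). Zc3h12a, an RNase for inflammatory transcripts (1.22 ± 0.27, adjusted p = 0.0492), and Arid5a, which stabilizes such transcripts (1.34 ± 0.29, adjusted p = 0.0478), were the others called. The factors called higher thus include Zfp36 and Zc3h12a, which act against such transcripts, and Arid5a, which stabilizes them. Elavl1, Zfp36l1 and Zfp36l2 did not pass in edgeR, although DESeq2 called Elavl1 higher as well (adjusted p = 0.0117).

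**Figure D4:**
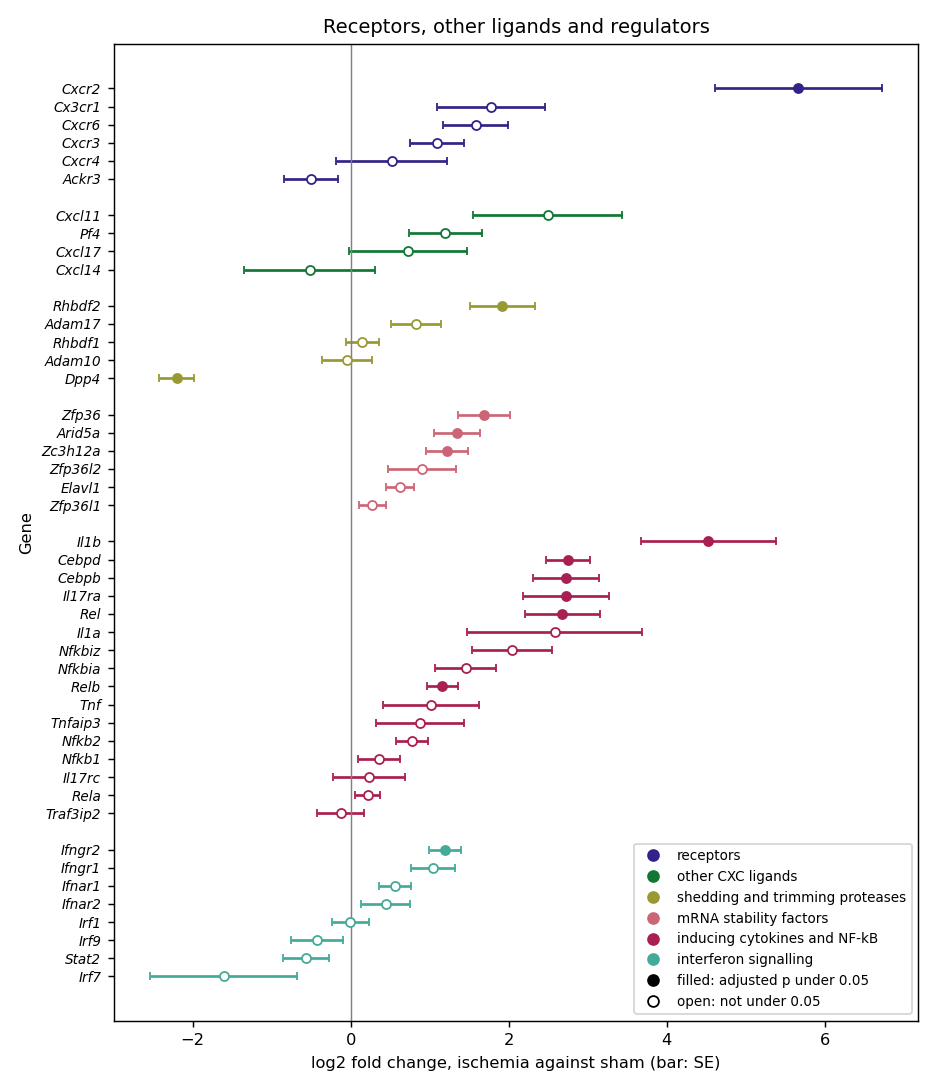
Log2 fold change (points) with SE (bars) of ischemia against sham for the tested receptors, other CXC ligands, proteases, mRNA stability factors, inducing cytokines with NF-kB genes, and interferon signaling genes that are reported; filled points had an edgeR adjusted p under 0.05. Cxcr2 (5.66) and Il1b (4.52) lie farthest to the right and Dpp4 (-2.20) farthest to the left.

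Of the other CXC ligands, 4 of 5 were tested and none was called in either direction by edgeR, although 2 (Cxcl11 and Pf4) were higher at an unadjusted p under 0.05 and DESeq2 called 1. Pf4, a platelet and macrophage ligand whose gene lies between Cxcl3 and Cxcl6, measured 53.2, 20.8 and 48.1 FPKM in sham and 61.6, 170.2 and 63.9 in ischemia. All ischemia samples were above sham, but the difference did not pass (log2 fold change 1.20 ± 0.46, SE, edgeR adjusted p = 0.135). Ppbp, the platelet ligand beside it, did not exceed 0.472 FPKM in any sample and was not tested.

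By position in the table, whose genome build is not given in the sources used here, 7 of the 10 chemokine genes lie on chromosome 14. Cxcl2 (18731378-18733391), Cxcl1 (18743685-18745457), Cxcl3 (18820168-18839595) and Cxcl6 (18860264-18862407) lie on the minus strand within 131.0 kb that holds 8 listed genes. This stretch was drawn from Cxcl2 to Cxcl6, so it contains the 4 chemokines called higher by its definition. It also holds Pf4, which was not called, and Ppbp, which was not tested. Cxcl11 (17195014-17198291), Cxcl10 (17210733-17212930) and Cxcl9 (17228856-17234712) lie side by side on the plus strand within 39.7 kb, and none of them was called by edgeR. Cxcl13 (15253125-15258207, minus strand) lies apart from both. Cxcl12 (chromosome 4, 149261044-149273891, plus strand), Cxcl16 (chromosome 10, 57060007-57064600, minus strand) and Cx3cl1 (chromosome 19, 10644244-10653800, minus strand) lie on other chromosomes. The Cxcl3 entry spans 19.4 kb, against 1.77 kb for Cxcl1 and 2.01 kb for Cxcl2.

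To see which genes had the profile most like each chemokine, log2 CPM were centered on each gene's own mean over the 6 samples, and genes were ranked by the root mean square (RMS) difference from the chemokine. Closest to Cxcl1 was Csf3r, the receptor for the neutrophil growth factor G-CSF and one of the neutrophil markers (RMS difference 0.213). Closest to Cxcl2 were Lilrc2 (0.372) and Il1r2 (0.430), the latter a decoy receptor for interleukin 1. Cxcl3 was closest to Cxcl2 (0.786). These likenesses describe the 6 samples, which share the difference between the groups, and carry no test.

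Cxcl6 was closest to Slpi, a protease inhibitor of epithelia and neutrophils (RMS difference 0.659), and to Mmp9, a neutrophil and macrophage gelatinase (0.839), rather than to its ELR relatives. Cxcl9 was closest to Adgre1 (0.238), one of the macrophage markers. Cxcl10 was closest to AABR07005779 (0.380) and next to Zbp1 (0.390), an interferon-induced sensor of nucleic acids. Relative to each gene's own spread, these matches were looser than that of Cxcl1 to Csf3r. The RMS about the own mean was 0.740 for Cxcl9 and 1.06 for Cxcl10, against 2.83 for Cxcl1. For the remaining chemokines the closest genes were H4f3 for Cxcl12 (0.0683), Chst12 for Cxcl13 (0.108), Iqgap1 for Cxcl16 (0.0684) and Lyrm7 for Cx3cl1 (0.0734).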

How the data were processed

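Total RNA of 3 sham and 3 ischemia samples of rat myocardium had been sequenced from stranded libraries. The submitters' processing notes name STAR and HTSeq without versions or roles, and the genome build and counting settings are not given in the sources used here. The authors deposited raw counts, which were whole numbers without normalization, and FPKM computed by the authors for 32623 genes, in which genes without counts were listed at a floor value that was read as 0.

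The deposited counts were compared with the quasi-likelihood test of edgeR 4.0.16 (R 4.3.3) with TMM scaling and no covariate, restricted to genes whose FPKM averaged 0.5 or more across all 6 samples. Benjamini-Hochberg adjustment covered all 13964 tested genes, with two-sided p-values and a threshold of 0.05. The SE of an edgeR log2 fold change was its absolute value divided by the square root of the F statistic of the test. For single values an exact permutation test (scipy 1.17.1, two-sided) was used. Alternatives were DESeq2 1.42.0, limma 3.58.1 on log2(FPKM + 0.1), log2(FPKM + 1) and log2(FPKM + 0.01), 2 other filters, 3 other scalings, removal of the mitochondrial genome, a replicate block, and each sample left out. The test was checked on simulated data.

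All 10 chemokines and the genes of the lists of receptors, ligands, proteases, stability factors, inducers, interferon genes and cell markers were open to naming, with the 2 genes of most similar profile for each chemokine. Values of a listed interferon gene are not reported here. The members and lists were chosen with earlier results of these data known. Kdm5d was chosen after its values were seen. Profiles used log2 CPM with a prior count of 2. Total counts per sample were 68529126 to 79591989. Limits from counts cover counting error only.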

Additional observations from a re-analysis of the deposited data

How the results depend on the processing

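The directions of Cxcl1, Cxcl2, Cxcl3, Cxcl6, Cxcl9, Cxcl12, Cxcl16 and Cx3cl1 held under all 17 alternatives. Signs turned for Cxcl10 without sham replicate 3 (-0.02) and without ischemia replicate 2 (-0.70), and, without ischemia replicate 2, for Cxcl13 (-0.35) and Cxcr4 (-0.66). With 1 sample left out, log2 fold changes ran from -0.70 to 0.81 for Cxcl10, from -0.35 to 0.72 for Cxcl13 and from -0.66 to 0.92 for Cxcr4. The cause was not tested. Genes called higher numbered 723, against 2071 with DESeq2 and 0 to 1490 with 1 sample left out. Genes called lower numbered 214, against 1742 with DESeq2, 93 without an expression filter, 83 with total-count scaling and 0 to 1115 with 1 sample left out. Among the 10 chemokines, 4 were called higher (0 to 4 with 1 sample left out) and 0 lower (1 with DESeq2, 0 to 1 with 1 sample left out). The share of calls that were higher was 77.2%, against 54.3% with DESeq2 and 86.0% with total-count scaling. The log2 fold changes of the ELR ligands were smallest with limma on log2(FPKM + 1), at 4.66 for Cxcl1, 5.17 for Cxcl2, 5.48 for Cxcl3 and 4.14 for Cxcl6, a scale that understates the change of low genes. Same-numbered samples did not deviate together (correlations -0.0561, -0.0940 and -0.196), and no sample correlated best with its own number. With the replicate block, 0 genes were called higher, 0 lower and 0 of the chemokines higher by edgeR, although 3349 genes, the 4 ELR ligands among them, had an unadjusted p under 0.05. DESeq2 gave no adjusted p for Cxcr2, and receptors under a mean FPKM of 5 could not be fitted with that filter. Depth limited Cxcl2, Cxcl3 and Cxcl6 in sham, which held 0 to 19 counts.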
